A study of Homo sapiens with 20 samples.

Results

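MiR-877, miR-1224, miR-1226 and miR-1229 are mirtrons, microRNAs (miRNAs) whose hairpin is a whole short intron. Their arms were taken from the deposited tables by name, namely miR-877-5p, miR-877-3p, miR-1224-5p, miR-1226-5p, miR-1226-3p and miR-1229-3p. These are 6 of the 2588 mature miRNAs listed, and each was listed under a single hairpin. The remaining arms of the same hairpins, miR-1224-3p and miR-1229-5p, are described with them. All 6 passed the filter on low counts in every comparison, miR-1226-5p in the serum comparison and miR-1224-5p between the p140 lines through 1 group alone.

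Most miRNAs are cut out of a longer transcript in the nucleus by the Microprocessor, a complex of the nuclease DROSHA and its partner DGCR8, and the hairpin is then cut again by DICER in the cytoplasm. A mirtron skips the first cut, because the spliceosome releases the intron, the lariat is opened by debranching and the intron folds into a hairpin that DICER can use. The supply of a mirtron therefore depends on transcription and splicing of its host gene. MiR-320a and miR-484 also bypass DROSHA, but as short capped transcripts that fold into a hairpin rather than as introns, and they serve here as the references of a DROSHA-independent route.

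The 4 hairpins are printed to show the intron ends that define a mirtron, with the splice donor GU and the splice acceptor AG in capitals. All 4 hairpins and all 8 of their arms were found in RefSeq (GRCh38.p14).
miR-877: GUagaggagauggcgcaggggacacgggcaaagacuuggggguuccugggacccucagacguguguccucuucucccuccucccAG
miR-1224: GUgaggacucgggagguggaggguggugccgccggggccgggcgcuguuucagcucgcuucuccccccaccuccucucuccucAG
miR-1226: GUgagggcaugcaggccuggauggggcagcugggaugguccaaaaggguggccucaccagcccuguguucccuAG
miR-1229: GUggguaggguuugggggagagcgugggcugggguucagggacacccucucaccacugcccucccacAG
Each hairpin began with GU and ended with AG. Of the 1562 hairpins of the RefSeq table, 36 (2.30%) did so.

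The mature arms are shown with the seed, bases 2 to 8 counted from the 5′ end, in capitals, since the seed sets which messages a miRNA pairs with.
miR-877-5p: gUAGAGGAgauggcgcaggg
miR-877-3p: uCCUCUUCucccuccucccag
miR-1224-5p: gUGAGGACucgggaggugg
miR-1224-3p: cCCCACCUccucucuccucag
miR-1226-5p: gUGAGGGCaugcaggccuggaugggg
miR-1226-3p: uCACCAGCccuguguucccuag
miR-1229-5p: gUGGGUAGgguuugggggagagcg
miR-1229-3p: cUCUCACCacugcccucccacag
The 8 arms carried 8 different seeds, and 0 other mature miRNAs of the RefSeq table shared any of them. Each 5p arm started at the first base of the intron and each 3p arm ended at its last base. The 3p arms were rich in pyrimidines, as the tract before a splice acceptor is. Pyrimidines made up 90.5% of miR-877-3p, 85.7% of miR-1224-3p, 73.9% of miR-1229-3p and 68.2% of miR-1226-3p, against a median of 56.5% over 822 3p arms. The 5p arms were rich in purines, with 80% in miR-877-5p, 75% in miR-1229-5p, 73.7% in miR-1224-5p and 69.2% in miR-1226-5p, against a median of 54.55% over 809 5p arms.

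All 4 hairpins matched an annotated intron of GENCODE 29 on hg38 base for base, and 0 transcripts had an exon there on the same strand. MiR-877 (chr6:30584332-30584417, plus strand, 86 nt) is intron 13 of 24 of ABCF1, an ATP-binding protein that aids translation initiation. MiR-1224 (chr3:184241405-184241489, plus strand, 85 nt) is intron 18 of 18 of VWA5B2. MiR-1226 (chr3:47849555-47849629, plus strand, 75 nt) is intron 21 of 22 of DHX30, an RNA helicase. MiR-1229 (chr5:179798278-179798346, minus strand, 69 nt) is intron 13 of 14 of MGAT4B, an enzyme that branches N-glycans in the Golgi. The intron was present in 3 annotated transcripts of ABCF1, 3 of VWA5B2, 6 of DHX30 and 9 of MGAT4B, and lay between coding exons in 3, 2, 5 and 7 of them. An exact match to an intron was found for 23 of 1562 RefSeq hairpins (1.47%), among them 8 of 8 other mirtron hairpins listed for comparison (miR-1225, miR-1227, miR-1228, miR-1233, miR-1234, miR-1236, miR-1237 and miR-1238). The GC content was 62.8% for miR-877, 70.6% for miR-1224, 64% for miR-1226 and 66.7% for miR-1229, against a median of 52.1% over the RefSeq hairpins. Their predicted folding energies, -39.8, -44.1, -35.4 and -36 kcal/mol in the same order, lay on both sides of the median of -36.35 kcal/mol.

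Small RNA was sequenced in 20 libraries of 8 groups. HCT116 is a human colon cancer line and HEK293E a line from human embryonic kidney cells. Knockout (KO) cells of each line, which lack DROSHA, were rescued either by the full-length protein or by a shorter form named DROSHA-p140, in 3 libraries per line and form. HCT116 DROSHA KO cells with GFP gave a single library, as did wild-type (WT) HCT116 cells with no treatment. Fetal bovine serum (FBS) was varied in WT HCT116 cells, which were kept 72 hr at 9.1% or 0.1% FBS, in 3 libraries each. The series title names the proline-rich disordered domain of DROSHA and the processing of intronic miRNAs as its subject. The labels do not say whether the knockout cells are 1 clone, how the rescue was expressed, or whether replicates came from separate cultures. All p-values therefore only set group differences against the scatter between these samples, and that scatter may be technical. DROSHA itself is not read out by small RNA sequencing, so the genotype labels could not be checked this way.

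Libraries held from 38288 miRNA reads (KO with GFP) to 2822317 (0.1% FBS). In HCT116 the p140 libraries (305603 to 327011 reads) were shallower than the full-length ones (764014 to 873717), and in HEK293E the ranges were 135085 to 246008 and 224262 to 335803. Levels are given as CPM, read counts scaled to the same total of miRNA reads in each library. A read covers a whole mature miRNA, so CPM needs no length term. Replicates differed by more than counting noise in each group, with a chi-square per degree of freedom of 2.03 to 32.8, and replicate 3 stood apart in the full-length and p140 HCT116 groups and in both serum groups. The HEK293 markers (miR-218-5p, miR-10a-5p and miR-10b-5p) summed to 90170 to 149500 CPM in HEK293E and 1175 to 11870 CPM in HCT116. The 4 colon epithelial markers (miR-200c-3p, miR-141-3p, miR-192-5p and miR-194-5p) summed to 30570 to 38460 CPM in WT HCT116, 4101 CPM in the KO with GFP and 260.5 to 486.9 CPM in the rescued HCT116 libraries, a range that reaches below that of HEK293E (388.9 to 540.9 CPM). The sum was therefore far lower in the rescued HCT116 libraries than in WT cells. High sums came from miR-200c-3p and miR-141-3p, with up to 26330 and 18300 CPM in HCT116. MiR-192-5p stood at 0 to 121.7 CPM in HCT116 and 101.6 to 188.9 CPM in HEK293E. MiR-194-5p stood at 52.2 to 370.1 and 163.8 to 223.2 CPM, so these did not mark HCT116. Of the 3 muscle markers, miR-206 had 0 reads in all 20 libraries. MiR-1-3p stood at 21.6 to 40.1 CPM in HEK293E and 0 to 3.06 CPM in HCT116. MiR-133a-3p stood at 10.8 to 30.05 CPM in HEK293E and 0 to 3.27 CPM in HCT116.

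For each of the 6 mirtron arms the KO with GFP was the highest group and a WT group the lowest. The same was true of miR-320a and miR-484, and how large a share of all miRNAs had this order was not counted. MiR-877-5p was the most abundant member in every library, at 30662 CPM in the KO with GFP, 9786 ± 1106 CPM (SD, n = 3 here and below) in HEK293E with p140 and 6975 ± 3499 CPM in HCT116 with p140. It stood at 5921 ± 455 CPM in HEK293E with full-length DROSHA and 1594 ± 605 CPM in HCT116 with full-length DROSHA. In WT cells it had 465 ± 121 CPM in 9.1% FBS, 270.5 ± 71.8 CPM in 0.1% FBS and 175 CPM without treatment. In that order HEK293E p140, HCT116 p140 and HEK293E full-length overlapped with their neighbours, while each of the other steps was free of overlap.

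**Figure D1:**
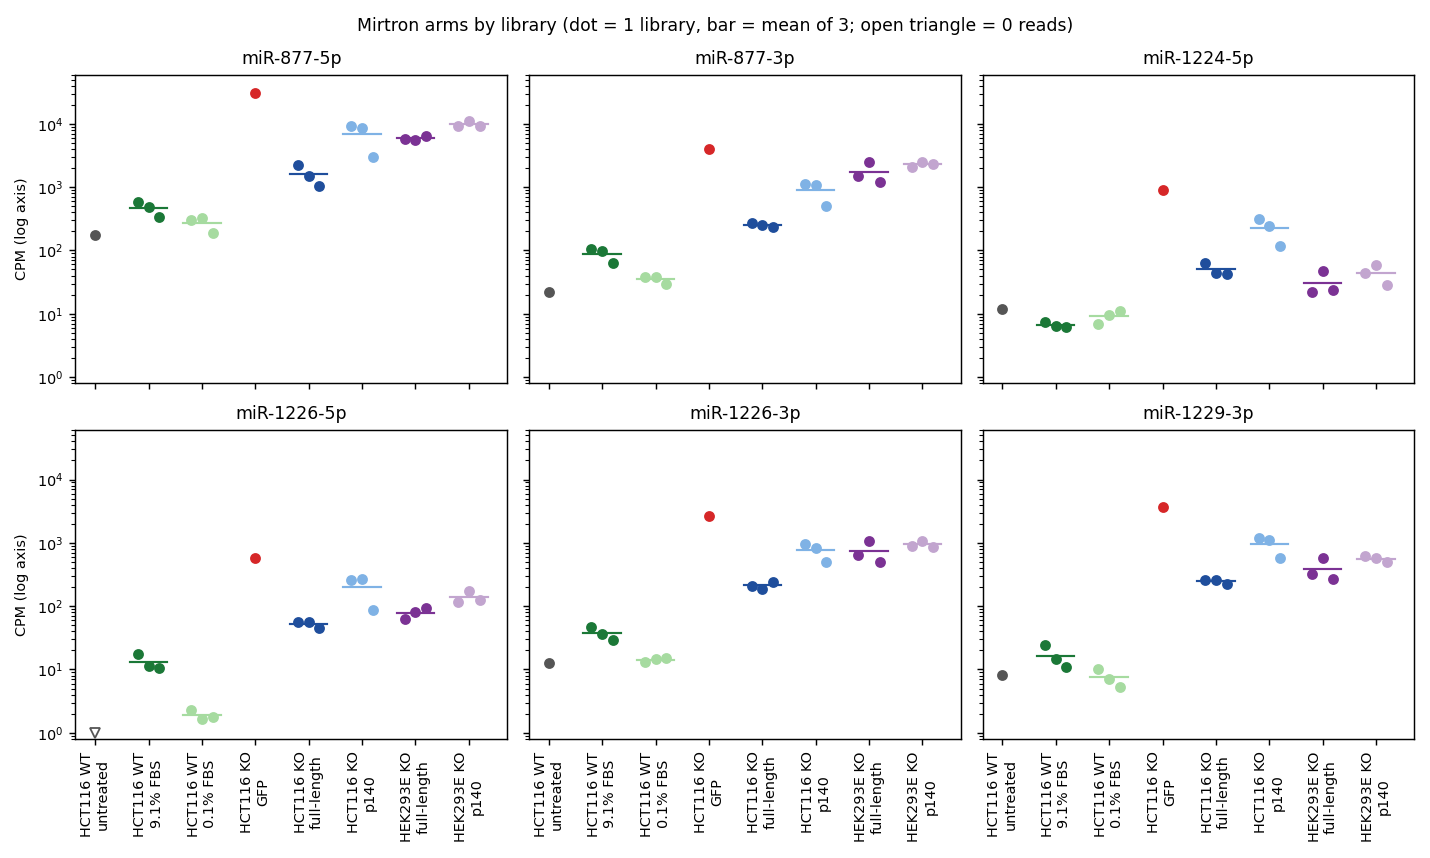
CPM (log axis) of the 6 mirtron arms in each of the 20 libraries, by group, with a bar at the mean of 3 libraries. The KO with GFP is the highest point of every panel, and all rescued libraries lie above all WT libraries. How large a share of all miRNAs had this order was not counted. The open triangle marks 0 reads of miR-1226-5p in untreated WT.

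MiR-877 took 69.7% to 91.7% of the reads of the 6 arms in a library, so sums over the members mostly follow it. The 6 arms together held 4.26% of miRNA reads in the KO with GFP. They held 1.38% ± 0.15 in HEK293E with p140, 1.00% ± 0.46 in HCT116 with p140, 0.890% ± 0.081 in HEK293E with full-length DROSHA and 0.241% ± 0.064 in HCT116 with full-length DROSHA. In WT HCT116 the share was 0.0627% ± 0.0160 in 9.1% FBS, 0.0339% ± 0.0076 in 0.1% FBS and 0.0230% without treatment. The p140 libraries of HCT116 held 1.32%, 1.22% and 0.473%, so replicate 3 lay much nearer to the full-length libraries than the others did.

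The least abundant members fell near the limit of counting in WT cells. MiR-1226-5p had 0 of 856658 reads in untreated WT, which allows up to 3.50 CPM, and 4, 4 and 5 reads in the libraries of 0.1% FBS. MiR-1224-5p had 10 reads in untreated WT and 12 to 31 in the serum libraries, so its level there (6.23 to 11.7 CPM) rests on few reads. The listed partner arms were rarer still. MiR-1229-5p had 0 reads in 9 libraries and at most 22.9 CPM in the others, apart from 3 reads (78.4 CPM) in the KO with GFP. MiR-1224-3p lay between 2.83 and 68.7 CPM outside that library, where 3 reads again gave 78.4 CPM.

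The KO with GFP was compared with untreated WT to show the mirtrons without DROSHA, with 1 library each and hence no replicate check. MiR-877-5p had 150 reads (175 CPM) in WT and 1174 reads (30662 CPM) in the KO. MiR-1229-3p had 7 reads (8.17 CPM) and 143 reads (3735 CPM), and miR-1226-3p 11 reads (12.8 CPM) and 103 reads (2690 CPM). MiR-877-3p had 19 reads (22.2 CPM) in WT and 155 (4048 CPM) in the KO. Every member was therefore higher in CPM in the KO. MiR-320a and miR-484 together held 65.2% of reads in the KO and 1.24% in WT. How large a share of all miRNAs was higher in the KO was not counted. The ratio was smallest for miR-1224-5p, with 10 reads (11.7 CPM) against 34 (888 CPM), 76.1-fold (exact 95% interval 36.7 to 173). For miR-1226-5p, with 0 reads against 22 (575 CPM), it was at least 164-fold when 3 reads are set as the floor of WT. These intervals and floors cover counting error only.

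CPM is relative to all other miRNAs of a library, so the arms were also scaled to the summed reads of miR-320a and miR-484, which were themselves 51.4-fold and 76.7-fold higher in the KO. On that scale the KO was 8.70-fold above WT for miR-1229-3p (interval 4.12 to 22.04), 3.99-fold for miR-1226-3p (2.14 to 8.24), 3.48-fold for miR-877-3p (2.15 to 5.93) and 3.33-fold for miR-877-5p (2.81 to 3.98). MiR-1224-5p, at 1.45-fold (0.700 to 3.29), could not be told from equal at this depth. The mirtron arms as a sum had a log2 ratio to the references of -5.75 in untreated WT and -3.94 in the KO. The excess depended on which WT cells were used. The WT libraries in 9.1% FBS had a log2 ratio of -3.91 ± 0.16 for the sum, of -4.34 ± 0.17 for miR-877-5p (KO -4.41), -6.73 ± 0.18 for miR-877-3p (KO -7.33) and -7.98 ± 0.08 for miR-1226-3p (KO -7.92). Against them the KO was higher for miR-1229-3p (-7.45 against -9.20 ± 0.33) and miR-1224-5p (-9.52 against -10.43 ± 0.13) and lower for miR-1226-5p (-10.15 against -9.49 ± 0.20), with 1 KO library and no test. Other differences between the cell populations and the loss of DROSHA cannot be told apart with these libraries.

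In HCT116 knockout cells each of the 6 mirtron arms took a larger share of miRNA reads with p140 than with full-length DROSHA. MiR-877-5p had 2240, 1504 and 1039 CPM with full-length DROSHA and 9302, 8671 and 2951 CPM with p140. MiR-1226-3p had 208, 189 and 239.5 CPM against 970, 838 and 501.5 CPM. MiR-1229-3p had 256, 262 and 226 CPM against 1175, 1129 and 575 CPM. The groups did not overlap for any of the 6, and p140 replicate 3 was the lowest of its group for each. In CPM of bulk RNA a larger share of cells making a miRNA, more of it per cell and less of other miRNAs cannot be told apart.

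By edgeR's quasi-likelihood test the log2 fold changes in HCT116 were alike in size. MiR-1224-5p rose by 2.12 ± 0.42 (SE, adjusted p = 0.0053, Benjamini-Hochberg) and miR-877-5p by 2.09 ± 0.47 (adjusted p = 0.0090). MiR-1229-3p rose by 1.89 ± 0.32 (adjusted p = 0.0028), miR-1226-5p by 1.89 ± 0.46 (adjusted p = 0.010), miR-1226-3p by 1.79 ± 0.31 (adjusted p = 0.0030) and miR-877-3p by 1.78 ± 0.35 (adjusted p = 0.0049). Of all 446 miRNAs tested, 59.6% were called at an adjusted p under 0.05, 28.5% higher and 31.2% lower, and the groups did not overlap for 32.7% in the higher and 33% in the lower direction. The median was 1.89 for the members and -0.11 for all miRNAs tested. The partner arm miR-1224-3p rose by 1.56 ± 0.47 (edgeR, adjusted p = 0.022), after passing the count filter through p140 alone.

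All 6 arms stayed called when any single HCT116 library was left out, but not when same-numbered pairs were or when the scale was changed. Without the replicates numbered 1 in both groups 0 of 6 arms were called (adjusted p of 0.052 for miR-1226-3p up to 0.11 for miR-1226-5p, edgeR), with log2 fold changes of 1.56 to 2.12, and without those numbered 2 only miR-1229-3p was (adjusted p = 0.044), with values of 1.61 to 1.97. Over all miRNAs these 2 fits called 12 higher and 62 lower of 458, and 17 and 61 of 459. The main fit called 127 and 139 of 446. Fewer calls were thus made over all miRNAs as well. Without the replicates numbered 3, which stand apart, all 6 were called, with log2 fold changes of 1.98 (miR-877-3p) to 2.28 (miR-1224-5p). Over all miRNAs 188 higher and 178 lower of 492 were called there. Leaving out single libraries gave 70 to 191 higher calls over all miRNAs. Scaled to miR-320a and miR-484, which rose by 1.90 ± 0.46 and 1.70 ± 0.23 themselves (edgeR, adjusted p = 0.010 and 0.0013), 0 arms were called. The values then lay between -0.092 (miR-877-3p) and 0.25 (miR-1224-5p), with miR-1226-3p at -0.072, miR-1226-5p at -0.051 and a median of -1.62 for all miRNAs. Over all miRNAs 0 were called higher and 167 lower on that scale. The rise was thus measured against all miRNA reads, and the references rose by a similar amount. The colon epithelial markers moved the other way, from 445.2 to 486.9 CPM with full-length DROSHA to 260.5 to 351.7 CPM with p140, and their part in the result was not tested.

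**Figure D2:**
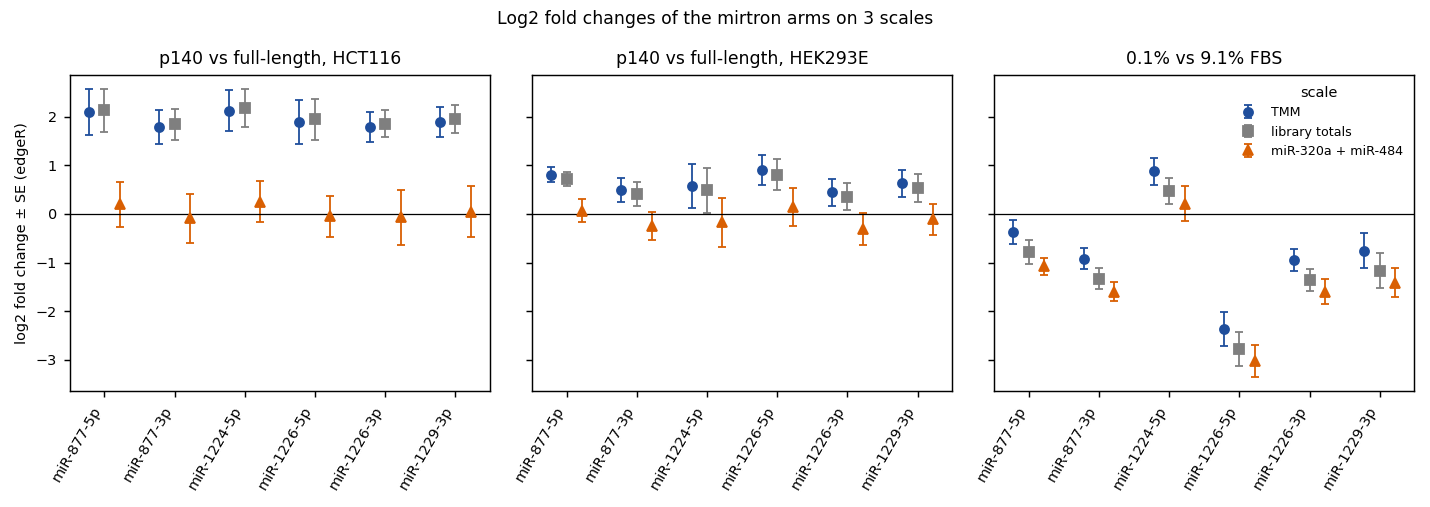
Log2 fold change ± SE (edgeR) of each mirtron arm in the 3 replicated comparisons, on the TMM scale, the scale of library totals and the scale of miR-320a plus miR-484. In both p140 comparisons the values sit near 0 on the reference scale, whereas in the serum comparison 5 of the 6 arms move further below 0. The 5 include miR-1226-5p, which passed the count filter through 9.1% FBS alone.

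In HEK293E knockout cells the changes were smaller. MiR-877-5p had 5855, 5504 and 6406 CPM with full-length DROSHA and 9157, 11063 and 9138 CPM with p140, without overlap, and rose by 0.81 ± 0.15 on the log2 scale (edgeR's quasi-likelihood test, adjusted p = 0.0028). It was the only one of the 6 called, where 26.4% of the 416 miRNAs tested were called, 5.29% higher and 21.2% lower. The members had a median of 0.60 and all miRNAs tested one of -0.04. MiR-1226-5p had 62.4, 81.6 and 92.3 CPM against 118, 173 and 126 CPM, also without overlap (as for 9.13% of miRNAs in the higher and 29.8% in the lower direction), with a log2 fold change of 0.89 ± 0.31 (adjusted p = 0.058).

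For the other arms the HEK293E groups overlapped in CPM, with full-length replicate 2 the highest of its group. MiR-1229-3p had 325.5, 575 and 268 CPM with full-length DROSHA and 622, 578 and 496 CPM with p140, a log2 fold change of 0.63 ± 0.28 (edgeR, adjusted p = 0.14). MiR-877-3p had 1471, 2537 and 1185 CPM against 2088, 2490 and 2284 CPM (0.50 ± 0.25, adjusted p = 0.19). MiR-1226-3p had 642, 1086 and 503 CPM against 896, 1080 and 858 CPM (0.44 ± 0.27, adjusted p = 0.28). In that library the 3p arms stood out, and the 5p arms miR-877-5p and miR-1226-5p did not. MiR-1224-5p, which makes fewer reads in this line, had 22.3, 47.2 and 23.8 CPM from 5 to 11 reads against 44.4, 59.4 and 28.5 CPM from 6 to 11 reads (0.57 ± 0.46, adjusted p = 0.40).

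Which HEK293E arms were called depended on how the replicates were treated. With the replicate number as a block, 5 of 6 were called higher by edgeR, namely miR-877-5p (0.80, adjusted p = 4.7e-10), miR-877-3p (0.56, adjusted p = 1.2e-04), miR-1229-3p (0.67, adjusted p = 3.4e-04), miR-1226-3p (0.49, adjusted p = 0.0047) and miR-1226-5p (0.86, adjusted p = 0.0084). The block also raised the calls over all 416 miRNAs, to 70 higher and 113 lower from 22 and 88. Without full-length replicate 2 the calls were 4 (miR-877-5p, miR-877-3p, miR-1229-3p and miR-1226-3p), without the replicates numbered 2 in both groups they were 3, and without p140 replicate 1 they were 2 (miR-877-5p and miR-1226-5p). Over all miRNAs these fits called 36 higher and 93 lower of 430, 12 and 63 of 424, and 32 and 83 of 441. In 1 fit over the 18 replicated libraries 0 were called by edgeR, with miR-877-5p at 0.84 (adjusted p = 0.10), beside 17 higher and 108 lower of 696 miRNAs. Scaled to miR-320a and miR-484 the calls were 0 as well, and miR-877-3p (-0.25), miR-1226-3p (-0.31), miR-1229-3p (-0.12) and miR-1224-5p (-0.17) fell below 0. The median of all 416 miRNAs was -0.74 on that scale, with 4 called higher and 210 lower. The summed level of 5 blood-cell miRNAs, mostly miR-486-5p, was 454.8 to 953 CPM with full-length DROSHA and 111 to 280.9 CPM with p140. The HEK293 markers lay at 123500 to 149500 CPM with full-length DROSHA and at 90170 to 108700 CPM with p140, and the colon markers at 441.4 to 540.9 and 388.9 to 436.8 CPM. The part of these lists in the result was not tested.

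Whether p140 acted differently in HEK293E and HCT116 was tested with a term for line by form in a model of the rescued libraries, the same ones as in both comparisons above. The effect was smaller in HEK293E for each of the 6 arms, by -1.03 (miR-1226-5p) to -1.59 (miR-1224-5p) on the log2 scale, but edgeR called 0 of 6, with adjusted p-values of 0.089 (miR-1226-3p) to 0.32 (miR-1226-5p). The unadjusted p was under 0.05 for 5 of 6 arms and for 105 of the 515 miRNAs tested, of which 3.3% were called, 2.14% higher and 1.17% lower. DESeq2 called 1 arm, miR-1226-3p (-1.40, adjusted p = 0.024). With the replicate number within each line as a block, edgeR called 5, all but miR-1226-5p (-0.99, adjusted p = 0.063), and 40 higher and 62 lower of all 515 miRNAs. Without HCT116 p140 replicate 3 it called 6 (adjusted p of 0.0038 to 0.023), beside 28 higher and 57 lower of 570 miRNAs. Without all replicates numbered 3 it called 4, beside 16 higher and 21 lower of 518. On the scale of the references 0 were called and miR-1226-5p turned to 0.19.

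The lines were also compared directly under the same form of DROSHA, using the same libraries. With full-length DROSHA the CPM of 5 arms was higher in HEK293E than in HCT116 without overlap, as for miR-877-3p, with 1471, 2537 and 1185 CPM in HEK293E and 276, 249.5 and 232 CPM in HCT116. Such a gap was seen for 61.5% of the miRNAs tested in the higher and 15.9% in the lower direction. MiR-1224-5p was the exception, with 22.3 to 47.2 CPM in HEK293E and 41.9 to 64.3 CPM in HCT116, which overlap. On the TMM scale miR-877-3p (1.71 ± 0.27), miR-877-5p (0.83 ± 0.25) and miR-1226-3p (0.74 ± 0.27) were called higher in HEK293E by edgeR (adjusted p = 4.3e-04, 0.016 and 0.038), where 64% of the 517 miRNAs tested were called, 33.7% higher and 30.4% lower. MiR-1224-5p was called lower (-1.77 ± 0.37, adjusted p = 0.0021). MiR-1226-5p (-0.47) and miR-1229-3p (-0.43) were not called.

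These line differences moved with the scale, since library totals in place of TMM shift the median of all miRNAs to 1.11. On library totals miR-1224-5p was at -0.71 (edgeR, adjusted p = 0.12), and miR-1226-5p and miR-1229-3p turned to 0.60 and 0.64. The split of all calls went from 174 higher and 157 lower to 315 and 76. MiR-877-5p and miR-1226-3p lost their call on the scale of miR-320a and miR-484 (0.48 and 0.25) and without HCT116 full-length replicate 2 (adjusted p = 0.054 and 0.16), and miR-877-5p also without the replicates numbered 3 (0.48, adjusted p = 0.065). MiR-1226-3p also lost it without HCT116 full-length replicate 1 and without HEK293E full-length replicate 2 (adjusted p = 0.14 for each), while miR-1229-3p was called lower without the latter (-0.74, adjusted p = 0.024).

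With p140 the order was different for several arms. MiR-1224-5p had 319, 245 and 119 CPM in HCT116 and 44.4, 59.4 and 28.5 CPM in HEK293E, without overlap (as for 18.2% of miRNAs in the lower and 53.1% in the higher direction), and was lower in HEK293E by edgeR (-3.34 ± 0.50, adjusted p = 2.3e-04). It passed the count filter through HCT116 alone, where it was high, so this call by itself is no support for a line difference. With no filter it was at -3.12 (edgeR, adjusted p = 9.2e-11). After the same filter it was also called on library totals (-2.38) and on the scale of the references (-2.59). MiR-1229-3p (-1.73 ± 0.32, adjusted p = 9.3e-04) and miR-1226-5p (-1.50 ± 0.47, adjusted p = 0.019) were called lower as well, where 55% of the 422 miRNAs tested were called, 25.6% higher and 29.4% lower, although their CPM overlapped between the lines. MiR-877-5p (-0.48), miR-877-3p (0.37) and miR-1226-3p (-0.66) were not called. On library totals, which shift the median of all miRNAs to 0.83, miR-877-3p was called higher (1.34, adjusted p = 0.0017), miR-1226-5p was no longer called (-0.53), and miR-877-5p and miR-1226-3p turned to 0.49 and 0.30. The 5 arms other than miR-877-3p were called lower without HCT116 p140 replicate 3, among them miR-877-5p (-0.79) and miR-1226-3p (-0.85). Over all miRNAs that fit called 135 higher and 145 lower of 442. The 5 include miR-1224-5p, which in the main fit passed the count filter through HCT116 alone. On the reference scale miR-1229-3p (-1.02, adjusted p = 0.12) and miR-1226-5p (-0.68, adjusted p = 0.21) lost their calls. MiR-1226-5p lost its call without HCT116 p140 replicate 1 or 2 or HEK293E p140 replicate 1 or 3 (adjusted p of 0.051 to 0.080).

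In WT HCT116 cells, where DROSHA is intact, miR-1226-3p and miR-877-3p fell in low serum while miR-320a rose. MiR-1226-3p had 46.4, 35.8 and 29.1 CPM in 9.1% FBS and 13.0, 14.8 and 15.2 CPM in 0.1% FBS. MiR-877-3p had 104, 97.9 and 64.3 CPM against 37.9, 38.3 and 29.8 CPM. Both were lower in 0.1% FBS without overlap. By edgeR they fell by 0.94 ± 0.22 and 0.92 ± 0.22 on the log2 scale (adjusted p = 0.0089 and 0.0085), where 45.8% of the 577 miRNAs tested were called, 25.5% higher and 20.3% lower. The groups did not overlap for 46.8% of miRNAs in the lower and 15.4% in the higher direction. MiR-1226-5p had 17.8, 11.2 and 10.4 CPM against 2.26, 1.65 and 1.77 CPM, also without overlap. It passed the filter on low counts through 9.1% FBS alone, so its call (-2.37 ± 0.35, edgeR, adjusted p = 0.0011) is no support for a fall of the group. With no count filter it was at -2.32 (adjusted p = 8.2e-07).

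MiR-877-5p and miR-1229-3p were lower without overlap but not called. MiR-877-5p had 573, 487 and 334 CPM in 9.1% FBS and 297, 325 and 189 CPM in 0.1% FBS (-0.37 ± 0.24, edgeR, adjusted p = 0.24). MiR-1229-3p had 24.1, 14.4 and 10.9 CPM against 10.2, 7.01 and 5.31 CPM (-0.76 ± 0.36, adjusted p = 0.12). MiR-1224-5p went the other way, with 7.45, 6.42 and 6.23 CPM against 6.79, 9.48 and 10.98 CPM, groups that overlap, and was called higher (0.88 ± 0.27, adjusted p = 0.030). The members' median, miR-1226-5p included, was -0.84 and that of all miRNAs -0.03.

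Calls in the serum comparison moved with the scale and the replicates. With the replicate number as a block all 6 arms were called by edgeR, with miR-877-5p at -0.37 (adjusted p = 4.9e-04) and miR-1229-3p at -0.70 (adjusted p = 0.023), while over all 577 miRNAs the calls went to 192 higher and 175 lower. On library totals, which shift the median of all miRNAs to -0.44 and the calls to 73 higher and 248 lower (147 and 117 with TMM), miR-877-5p (-0.78, adjusted p = 0.027) and miR-1229-3p (-1.16, adjusted p = 0.026) were called lower. The higher call of miR-1224-5p ended there (0.47, adjusted p = 0.17), with DESeq2 (0.86, adjusted p = 0.12) and without any single library but 0.1% FBS replicate 1 (adjusted p of 0.065 to 0.11). MiR-1229-3p was called lower without 9.1% FBS replicate 3 (adjusted p = 0.044). Without the replicates numbered 1, or those numbered 2, only miR-1226-5p was called (-2.25 and -2.37). It passed the main count filter through 9.1% FBS alone, so these calls are no support for a fall of the group. Over all miRNAs these fits called 79 higher and 56 lower of 601, and 78 and 41 of 573. Without the replicates numbered 3, which stand apart, miR-877-5p (-0.33, edgeR, adjusted p = 0.0081), miR-877-3p, miR-1226-5p and miR-1226-3p were called lower. That fit called 183 higher and 162 lower of 586 miRNAs. The colon epithelial markers summed to 30570 to 33610 CPM in 9.1% FBS and 37230 to 38460 CPM in 0.1% FBS, and the blood-cell miRNAs to 48.7 to 73.7 and 184.7 to 209.8 CPM. Their part in the result was not tested.

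The mirtrons were also set against the DROSHA-independent references within each library. MiR-320a rose in 0.1% FBS by 0.82 ± 0.17 (edgeR, adjusted p = 0.0048), with overlapping CPM, while miR-484 was at -0.23 ± 0.17 (adjusted p = 0.30). The log2 ratio of the summed mirtron reads to the summed reads of both was -3.83, -3.80 and -4.09 in 9.1% FBS and -5.05, -5.05 and -5.14 in 0.1% FBS, a difference of -1.17 without overlap. Relative to miR-484 alone the difference was -0.27. MiR-484 had 1343 ± 292 CPM in 9.1% FBS and 866 ± 84 CPM in 0.1% FBS, and miR-320a 7938 ± 1365 and 10531 ± 2150 CPM. Single members scaled to both references were lower for 5 of 6 arms (edgeR), among them miR-877-5p (-1.08, adjusted p = 0.0023) and miR-1229-3p (-1.42, adjusted p = 0.0059). The 5 include miR-1226-5p, which passed the count filter through 9.1% FBS alone and is no support for a fall of the group. On this scale the median of all 577 miRNAs was -0.72, with 266 called lower and 21 higher.

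**Figure D3:**
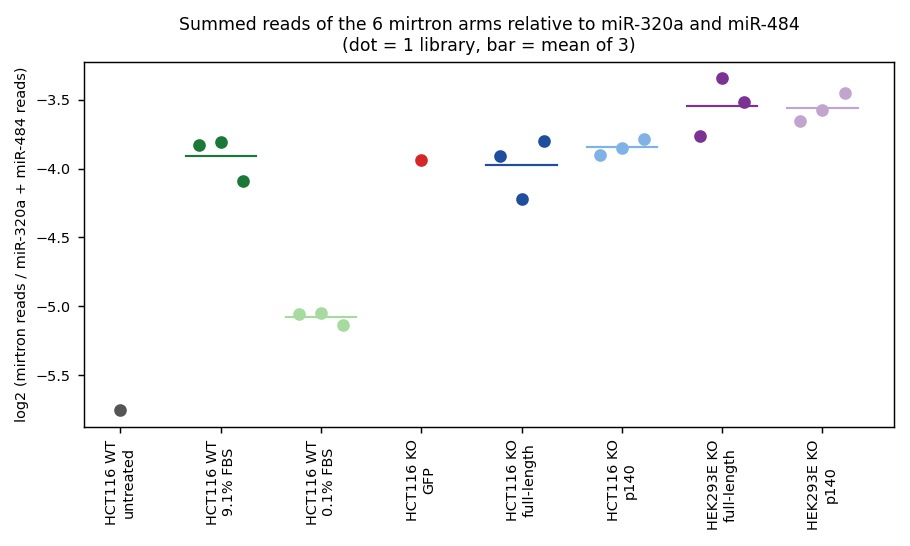
Log2 ratio of the summed reads of the 6 mirtron arms to the summed reads of miR-320a and miR-484, 1 dot per library and a bar at the mean of 3. Untreated WT (-5.75) and the 0.1% FBS libraries (-5.14 to -5.05) lie below all others, which range from -4.22 to -3.35.

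In the rescued cells the same ratio overlapped between the forms of DROSHA. In HCT116 the full-length libraries had -3.98 ± 0.22 and the p140 libraries -3.85 ± 0.06, and in HEK293E these values were -3.54 ± 0.21 and -3.56 ± 0.10. The KO with GFP, at -3.94, lay within the range of the HCT116 full-length libraries. Among WT libraries those in 9.1% FBS (-4.09 to -3.80) lay in the range of the rescued HCT116 cells, whereas untreated WT was the lowest of all 20.

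Both arms of a hairpin come from the same intron, so their ratio is free of library scaling. MiR-877 was mostly read from its 5p arm, which made up 85.5% ± 3.6 of its reads in HCT116 with full-length DROSHA and 87.9% ± 2.0 with p140. In HEK293E it was 77.6% ± 8.2 with full-length DROSHA, from 79.9%, 68.4% and 84.4% in the 3 libraries, and 81.0% ± 0.9 with p140. It was 88.8% (exact Clopper-Pearson 95% interval 83.0 to 93.1) in untreated WT and 88.3% (86.5 to 90.01) in the KO with GFP, so these did not differ beyond counting error. MiR-1226 was mostly read from its 3p arm, at 80.0% ± 3.5 with full-length DROSHA and 80.1% ± 4.8 with p140 in HCT116, and 89.6% ± 4.5 and 87.2% ± 1.1 in HEK293E.

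Between the serum groups the arm shares of both hairpins did not overlap. For how many hairpins of the whole series this holds was not counted. The 3p share of miR-1226 was 72.3%, 76.1% and 73.7% in 9.1% FBS and 85.2%, 90% and 89.6% in 0.1% FBS, a difference of 14.2 percentage points (exact two-sided permutation test, p = 0.1, adjusted p = 0.3 over 6 tests). The 5p share of miR-877 was 84.7%, 83.3% and 83.9% against 88.7%, 89.5% and 86.4%, a difference of 4.25 points (exact permutation p = 0.1, adjusted p = 0.3). The smallest p that 3 against 3 libraries can give is 0.1, so neither could pass the threshold. In both hairpins the major arm made up more of the reads in 0.1% FBS. For miR-1226 the 5p arm behind the 0.1% FBS values had only 4 or 5 reads per library. The p140 comparisons gave exact permutation p of 0.4 to 0.9. Between the lines, where arm shares were not tested, the 3p share of miR-1226 was higher in HEK293E without overlap, at 84.5% to 93.0% against 77.1% to 83.9% with full-length DROSHA and 86.2% to 88.3% against 76.0% to 85.4% with p140. The 5p share of miR-877 was lower in HEK293E with p140 (80% to 81.6% against 85.5% to 89.1%) and overlapped with full-length DROSHA. MiR-1229 was read almost wholly from its 3p arm (94.4% to 100%), and miR-1224 from its 5p arm in 44% to 91.9% of reads.

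**Figure D4:**
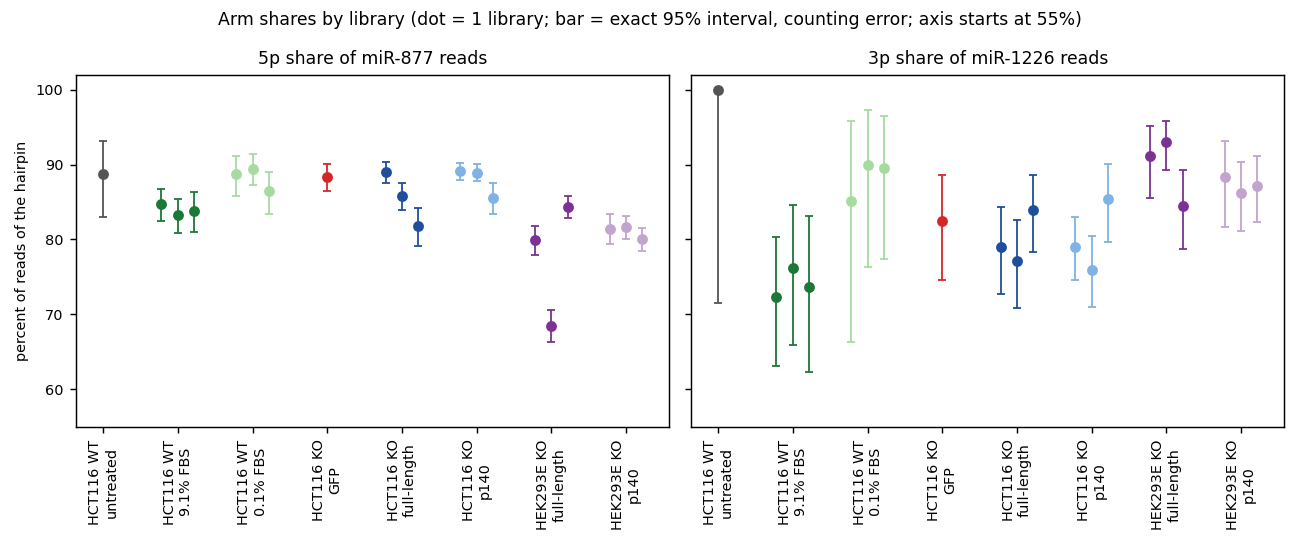
Percent of miR-877 reads from the 5p arm and of miR-1226 reads from the 3p arm in each library, with exact 95% intervals for counting error; the axis starts at 55%. The points of the 9.1% and 0.1% FBS libraries do not overlap in either panel, but some of their intervals do. HEK293E full-length replicate 2 (68.4%) is the lowest miR-877 value.

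Of 15 further mirtron arms in the table, from the 8 hairpins named above, miR-1228-3p was the most abundant, with a mean of 153 CPM over the 20 libraries. In HCT116 5 of the 15 were tested and called higher with p140, but 3 of these, miR-1228-5p, miR-1227-3p and miR-1237-3p, passed the count filter through the p140 group alone. Among the 5 were miR-1237-3p (2.21 ± 0.34), miR-1236-3p (2.09 ± 0.33), miR-1228-3p (1.78 ± 0.40) and miR-1227-3p (1.61 ± 0.47), with edgeR adjusted p-values of 0.0022 to 0.020. In HEK293E 3 were tested and 0 called, with miR-1228-3p at 0.50, miR-1237-3p at 0.55 and miR-1227-3p at -0.10. In serum only miR-1237-3p was tested (-0.32 ± 0.37, edgeR, adjusted p = 0.51).

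The DROSHA-independent miRNAs that are no mirtrons (miR-320a to miR-320e, miR-484 and miR-3615) were called higher with p140 in 7 of 7 cases in HCT116 (median 1.70). In HEK293E 6 of 7 were (median 0.72), with miR-320e at 0.62 and not called. Of all miRNAs tested 28.5% and 5.29% were called higher. In 0.1% FBS 6 of 7 were called higher (median 0.76), all but miR-484, against 25.5% of all miRNAs tested. Of the 6 mirtron arms 1 was called higher there and 3 lower, miR-1226-5p among them. The difference between these lists was not tested.

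Of 646 other miRNAs with a mean of at least 10 CPM, those whose pattern over the 20 libraries was most like that of the summed mirtron arms were miR-636 (Pearson r = 0.990 of log2(CPM + 1)), miR-484 (0.986), miR-7111-3p (0.986), miR-6511a-3p (0.983) and miR-7706 (0.983). These correlations share the libraries and their composition, and the KO with GFP lies far from the rest. Over the 18 replicated libraries alone they ranked 1, 5, 8, 11 and 2.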

How the data were processed

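TRIzol extraction, DNase I treatment, spike-in RNAs, gel size selection and ligation of randomized adaptors preceded MiSeq sequencing, per the labels' protocols. The tools named per the submitters' processing notes are cutadapt, STAR and bedtools, with hg38 as build. Not given in the sources used here are their versions, the miRNA annotation release, the handling of reads with several map positions and any use of the randomized bases. The authors deposited raw read counts per mature miRNA (2813 values and 2588 miRNAs in each table). Since 0 entries named anything but a miRNA, spike-ins were not used here. Of mature miRNAs listed under several hairpins (167, among them 0 members) the copy with the highest total was kept. Groups and replicate numbers came from the sample titles.

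The test on counts was that of edgeR 4.0.16 in R 4.3.3 (quasi-likelihood, TMM scaling, filterByExpr at a minimum count of 10, two-sided, Benjamini-Hochberg over all miRNAs tested, threshold 0.05), each comparison fitted on its own libraries, and the script was tested on simulated data. Alternatives were DESeq2 1.42.0, library totals, scaling to miR-320a and miR-484, no count filter, 1 fit over 18 libraries, a replicate block, copies summed, and leaving out replicates. Arm shares were compared with exact permutation tests (scipy 1.17.1). Deviations from the group means correlated between same-numbered replicates at 0.36 to 0.68 in HCT116, 0.35 to 0.56 in HEK293E and 0.15 to 0.67 in the serum experiment. The highest correlation between different numbers was 0.37 in HCT116, 0.15 in HEK293E and 0.48 in serum. In HCT116 and serum the numbers therefore did not clearly pair replicates 1 and 2. The main tests did not use the numbers, and the replicate block was an alternative. Between lines the numbers were not taken to pair samples. Folding energies came from RNAfold 2.7.2, and introns from GENCODE 29.

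Named miRNAs were the 6 members in every comparison, their partner arms, miR-320a and miR-484, up to 4 further mirtrons by mean CPM, and the 5 miRNAs of most similar pattern. The members and lists were chosen with earlier results of these data known. Intervals and floors (3 counts) cover counting error only, since PCR copies of 1 molecule may be read several times.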

Additional observations from a re-analysis of the deposited data

Results flagged for a closer look

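MiR-484, a reference, differed in its response to p140 between the lines: the interaction of line and DROSHA form was -1.17 ± 0.29 on the log2 scale (edgeR's quasi-likelihood test, adjusted p = 0.039), with 1.70 ± 0.23 in HCT116 and 0.58 ± 0.17 in HEK293E. It had 3632, 3668 and 3497 CPM with full-length DROSHA and 14886, 13275 and 8660 CPM with p140 in HCT116. In HEK293E it had 19143, 22989 and 16337 CPM against 29626, 29721 and 22715 CPM, which overlap. The interaction values of the 6 mirtron arms were of the same sign and not called, and no explanation was tested.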

How the results depend on the processing

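Over all alternatives the log2 fold changes of single arms kept their direction and side of the threshold in 503 of 609 cases, lost the call in 52, gained it in 40 and changed sign in 14. All sign changes came from scaling: to miR-320a and miR-484 (HCT116 miR-1226-3p -0.072, miR-1226-5p -0.051, miR-877-3p -0.092; HEK293E miR-1224-5p -0.17, miR-1226-3p -0.31, miR-1229-3p -0.12, miR-877-3p -0.25; lines with p140 miR-1226-3p 0.0082, miR-877-5p 0.35; interaction miR-1226-5p 0.19) or to library totals (lines with full-length DROSHA miR-1226-5p 0.60, miR-1229-3p 0.64; lines with p140 miR-1226-3p 0.30, miR-877-5p 0.49). Arms called on the reference scale were 0 in HCT116 and 0 in HEK293E, 2 between lines with full-length DROSHA and 1 with p140. Over all miRNAs the calls there were 0 higher and 167 lower of 446 in HCT116 and 4 and 210 of 416 in HEK293E. Between lines they were 108 and 169 of 517 with full-length DROSHA and 83 and 56 of 422 with p140. In 1 fit over 18 libraries HEK293E had 0. With the replicate block the HEK293E calls were 5, the interaction calls 5 and the serum calls 6, the HCT116 calls stayed 6 and, where the numbers do not pair samples, the line comparisons had 3 and 3; DESeq2 gave 1 interaction call. Leaving out replicates gave 0 to 6 calls in HCT116, 1 to 4 in HEK293E, 1 to 4 in serum, 2 to 4 and 2 to 5 between lines with full-length DROSHA and p140, and 0 to 6 for the interaction. Over all miRNAs the leave-outs called 12 to 191 higher in HCT116, 7 to 36 in HEK293E and 78 to 183 in serum. The lower calls were 61 to 197, 40 to 93 and 41 to 162. The difference in arm share ranged from -1.43 to 7.35 points for miR-877 in HEK293E and from -0.52 to 0.78 for miR-1226 in HCT116, where pooled reads gave -0.78.

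With copies summed the mirtron share of reads was 0.685% in HEK293E with full-length DROSHA, 1.08% with p140, 0.0193% in untreated WT and 3.93% in the KO with GFP and the bound for miR-1226-5p in the KO was at least 180.6-fold. On the reference scale the KO to WT ratios were 3.33 (miR-877-5p), 3.48 (miR-877-3p), 1.45 (miR-1224-5p), at least 3.12 (miR-1226-5p), 3.99 (miR-1226-3p) and 8.70 (miR-1229-3p). Relative to miR-484 alone the serum difference was -0.27 and the KO to WT difference 1.27. Beyond the scaling of the alternatives themselves the cause was not tested. Depth limits miR-1226-5p and miR-1224-5p in WT cells, the partner arms in all groups and every value of the KO with GFP.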

Other observations

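Untreated WT HCT116 cells resembled the 0.1% FBS libraries more than the 9.1% FBS ones in their mirtron levels. MiR-1226-3p had 12.8 CPM without treatment, 13.0 to 15.2 CPM in 0.1% FBS and 29.1 to 46.4 CPM in 9.1% FBS. MiR-877-3p had 22.2 CPM, 29.8 to 38.3 CPM and 64.3 to 104 CPM, and miR-1229-3p 8.17 CPM, 5.31 to 10.2 CPM and 10.9 to 24.1 CPM. The serum content of the untreated medium is not stated in the labels, and this single library has no replicate.

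Among the further mirtrons, miR-1228-3p had 0 reads in untreated WT and 1358 CPM in the KO with GFP, and miR-1237-3p 4.67 and 261 CPM. Of the 5 miRNAs most similar in pattern, miR-636 had 4.67 CPM in untreated WT and 1410 CPM in the KO with GFP, and miR-7706 26.9 and 3526 CPM.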
